A study of Saccharomyces cerevisiae BY4741 with 12 samples.

Results

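The genes described here serve growth on acetate, ethanol, lactate and other carbon sources that yeast uses when glucose has run out. There are 10 of them among the 6632 annotated rows of the deposited expression sheet: ADY2, JEN1, SFC1, ATO3, ADH2, ACS1, ICL1, MLS1, PCK1 and FBP1. All 10 were found by their systematic names, and all had values above 0 in the 4 strains. They were chosen by name as glucose-repressed genes, at a time when the strain means of this sheet were known. The differences between strains are therefore given as a description, with no test.

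The data came from strand-specific sequencing of polyadenylated RNA from Saccharomyces cerevisiae strains of the BY4741 background. The set2-Y149F and set2-Y236F strains lacked chromosomal SET2 and carried pRS415, a plasmid with the LEU2 marker, with SET2 in which one tyrosine of the catalytic SET domain had been changed to phenylalanine. The set2Δ strain lacked SET2 and carried the empty plasmid. For the WT no plasmid is named in the methods. LEU2, which BY4741 lacks, was nevertheless expressed in all 4 strains, at 1775 FPKM in set2-Y149F, 1890 in set2-Y236F, 6023 in set2Δ and 3209 in the WT, so the WT libraries also held RNA of the marker. Set2 is the methyltransferase of lysine 36 of histone H3. According to the labels there were 12 libraries, 3 for each strain. The cultures had no further treatment, were diluted to an OD600 of 0.2 at 30 °C and were collected at 0.8. The medium was YPD or SD, both of which contain glucose, and although the study describes the cultures as grown in rich medium, it does not assign a medium to each strain. An effect of the medium, or of the unequal marker level, therefore cannot be told apart from those of the mutations. The same holds for the level of SET2 RNA, which differed between the strains and is given below. The methods list no strain with unmutated SET2 on the plasmid.

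Each strain has 1 mean value per gene in FPKM, which is the number of fragments per kilobase of transcript scaled to the sequencing depth. With no value per library, neither an SD nor a test can be given, and the sheet does not state how many libraries stand behind a mean. Neighbours in any order of levels can thus not be set against their spread. A gene is called higher or lower here when log2(FPKM + 1) differs by 1 or more between strains, which is called 2-fold below. The added 1 makes the differences of genes near 1 FPKM look smaller than they are. As a check of the labels, SET2 itself was at 253 FPKM in set2-Y149F, 271 in set2-Y236F, 0.190 in set2Δ and 29.1 in the WT. The point mutants thus held far more SET2 RNA than the WT, and the part of this level in their differences was not tested. The depth per library is not known. The authors' mean scaled count, over libraries that their sheet does not name, ran from 44.4 for SFC1 to 11463 for ADH2.

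Yeast takes up acetate and lactate through plasma membrane carriers, converts them to acetyl-CoA and builds 4-carbon acids from this in the glyoxylate cycle. Gluconeogenesis then makes sugar phosphates from these acids. Glucose represses the genes of this route. When glucose is gone, the Snf1 kinase inactivates the repressor Mig1, and the activators Cat8, Sip4 and Adr1 turn the genes on. Cat8 and Sip4 bind the carbon source response element, or CSRE. Since the RNA came from whole cultures, a high level in few cells and a low level in all cells cannot be told apart.

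The DNA before the start codons shows what most of these genes share. The fixed letters of the CSRE, CC and CCG with any 6 bases between them on either strand, occurred in the 500 bases before the start codon in 8 of the 10 genes and in 1225 of 5875 protein-coding genes with a full window (20.9%). The genes were chosen as glucose-repressed, and the CSRE is bound by activators of such genes. Nothing is therefore read from these shares. The stretches below are shown because they let the element be compared between genes that were over 2-fold higher in both point mutants than in the WT (ADY2, ACS1) and genes that were not (ICL1, MLS1, PCK1). JEN1, which has no match, and FBP1, whose 2 overlapping matches are not printed, were also over 2-fold higher in both. For ACS1, MLS1 and PCK1 the match shown is the one that also holds the longer form described below. Capitals mark the 11 bases of the match, and each stretch is given 5′ to 3′ on the strand of the gene, from the R64 genome.
ADY2, distal match: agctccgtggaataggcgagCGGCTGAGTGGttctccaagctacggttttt
ADY2, proximal match: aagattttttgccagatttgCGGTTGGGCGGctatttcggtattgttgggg
ACS1, middle match: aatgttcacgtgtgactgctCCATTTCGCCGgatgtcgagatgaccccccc
ICL1: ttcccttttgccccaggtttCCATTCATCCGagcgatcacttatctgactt
MLS1: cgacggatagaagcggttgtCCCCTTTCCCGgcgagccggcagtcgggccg
PCK1, distal match: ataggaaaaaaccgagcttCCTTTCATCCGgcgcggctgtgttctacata

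The ADY2 stretches lie at chrIII:133573-133623 and chrIII:133427-133477 on the minus strand, and their matches begin 479 and 333 bases before the start codon. The ACS1 stretch lies at chrI:45363-45413 on the minus strand, with its match 371 bases before the start codon. The ICL1 stretch lies at chrV:287282-287332 on the minus strand, at 398 bases. Those of MLS1 and PCK1 are on the plus strand, at chrXIV:405880-405930 and chrXI:630652-630701, with matches that begin 458 and 481 bases before the start codon. In ADY2 both matches are on the opposite strand.

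Matches were found both in genes with large differences between strains and in genes with small ones. JEN1, whose difference from the WT was among the largest, had 0 matches in its window, as had ATO3. MLS1, whose means lay within 2-fold of the WT in every mutant, had 5 matches that partly overlap each other. ACS1 and ADH2 had 3 each, of which those of ADH2 include a pair that overlap. A longer form with a T before the first CC, every match of which also holds the shorter one, was found in 6 genes (ADH2, ACS1, ICL1, MLS1, PCK1 and FBP1) and in 6.79% of the 5875 windows.

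The other letters searched on both strands were TTGGNG, the core bound by Adr1, and GNGGGG, a loose pattern for Mig1. GNGGGG allows any base in its second place, so a plain run of G also matches. A match to it is therefore not by itself a Mig1 site. TTGGNG occurred in 7 of the 10 genes and in 51.8% of all windows. ADY2 had 5 such matches and ATO3 had 4. GNGGGG occurred in JEN1, ACS1 and FBP1 and in 23.3% of all windows, and the 6 matches in ACS1 overlap in a single run. A match of this kind is a description of the letters, and no match says only that they are not in this window.

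**Figure D1:**
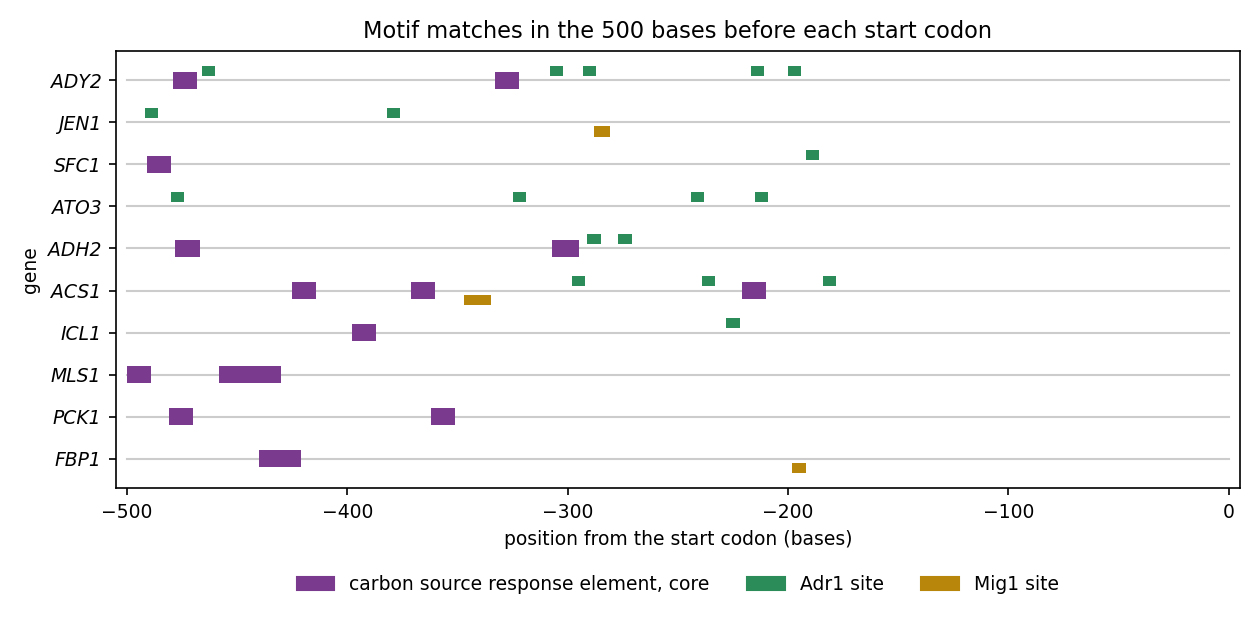
Matches of the CSRE core (purple), the Adr1 core (green, above the line) and the loose Mig1 pattern GNGGGG (ochre, below the line) in the 500 bases before the start codon of each gene; the horizontal axis is the distance from the start codon in bases. JEN1 and ATO3 have no CSRE match in this window, and overlapping matches, as in MLS1, merge into a single block.

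The largest differences were those of genes for uptake at the plasma membrane. ADY2 (YCR010C, chromosome III, 132273 to 133124), which encodes an acetate transporter of the plasma membrane, was at 23.2 FPKM in set2-Y149F, 35.2 in set2-Y236F, 4.93 in set2Δ and 2.07 in the WT. Both point mutants thus stood far above set2Δ and the WT, at 11.2 and 17.0 times the WT mean. On log2(FPKM + 1) the differences from the WT were 2.98 in set2-Y149F and 3.56 in set2-Y236F, where 3 and 1 of the 6632 rows had a larger one. In set2Δ the ratio to the WT was 2.38, but the difference of 0.95 was under 2-fold on the log scale. Scaling the strains to the same median brought it to 1.05.

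JEN1 (YKL217W, chromosome XI, 22234 to 24084), the gene of the lactate and pyruvate permease, was at 153 FPKM in set2-Y149F, 170 in set2-Y236F, 43.3 in set2Δ and 25.1 in the WT. The strains fell in the same order as for ADY2. The differences from the WT were 2.56, 2.71 and 0.76 on the log scale. Among all annotated levels, JEN1 stood at percentile 84.2 in set2-Y149F, 85.8 in set2-Y236F, 57.9 in set2Δ and 38.9 in the WT. In the point mutants it was the most abundant of the 10 genes after ADH2, a place that ATO3 held in set2Δ and the WT.

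SFC1 (YJR095W, chromosome X, 609773 to 610741) encodes the mitochondrial carrier that exchanges succinate for fumarate and so links the glyoxylate cycle to mitochondria. It was the lowest of the 10 genes in every strain, at 3.26 FPKM in set2-Y149F, 3.81 in set2-Y236F, 0.942 in set2Δ and 1.31 in the WT. The point mutants again had the higher means, while that of set2Δ was below the WT. The difference from the WT was 0.89 in set2-Y149F, just under 2-fold, and 1.06 in set2-Y236F. At these levels the pseudocount sets the call: with 0.1 in place of 1 the value for set2-Y149F was 1.26, and with 10 that for set2-Y236F was 0.29.

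ATO3 (YDR384C, chromosome IV, 1241204 to 1242031), a relative of ADY2 that encodes a putative ammonium transporter, did not share this pattern. It was at 73.5 FPKM in set2-Y149F, 68.6 in set2-Y236F, 58.1 in set2Δ and 89.7 in the WT. The mutants all had lower means than the WT, within 2-fold, with differences of -0.28, -0.38 and -0.62. The coding sequences of ADY2 and ATO3 are 62.1% identical over 762 aligned bases, and neither has a stretch of 75 bases, the read length, that occurs elsewhere in the genome.

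**Figure D2:**
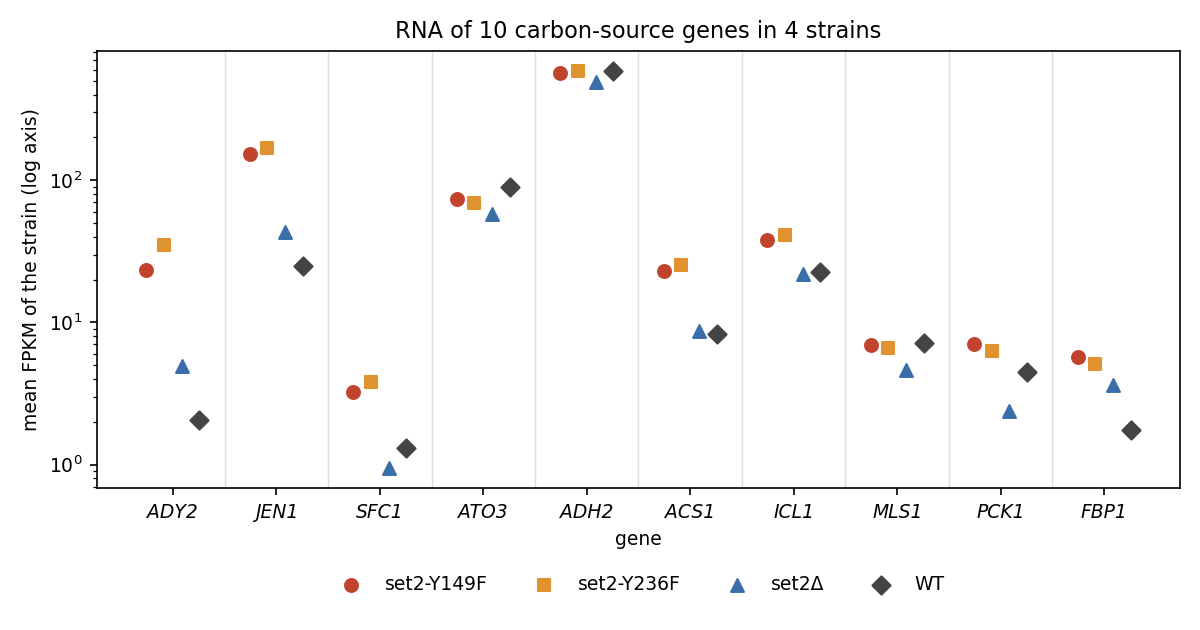
Mean FPKM of the 10 genes (log axis) in set2-Y149F (circles), set2-Y236F (squares), set2Δ (triangles) and the WT (diamonds), 1 mean per strain and no error, since no value per library was used. For ADY2, JEN1, SFC1, ACS1, ICL1, PCK1 and FBP1 both point mutants lie above both set2Δ and the WT; ADH2 stands between 488 and 590 FPKM in all 4 strains.

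Of the enzymes that feed acetyl-CoA into the pathway, ACS1 was higher in the point mutants and ADH2 was not. ACS1 (YAL054C, chromosome I, 42881 to 45022), the acetyl-CoA synthetase of cells that respire, was at 23.1 FPKM in set2-Y149F, 25.4 in set2-Y236F, 8.69 in set2Δ and 8.26 in the WT. The point mutants were at 2.79 and 3.08 times the WT, and set2Δ was at 1.05 times. ACS2, the isoform used on glucose and 66.5% identical to ACS1 over the aligned bases, was at 151, 127, 124 and 186 FPKM in the same strains. The ratio of ACS2 to ACS1 was thus 6.55 in set2-Y149F, 4.99 in set2-Y236F, 14.3 in set2Δ and 22.6 in the WT.

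ADH2 (YMR303C, chromosome XIII, 873291 to 874337), the alcohol dehydrogenase that oxidises ethanol to acetaldehyde, was the most abundant of the 10. Its means were 565 FPKM in set2-Y149F, 587 in set2-Y236F, 488 in set2Δ and 590 in the WT, so that the strains lay close together. The differences from the WT were -0.06, -0.01 and -0.27. ADH2 is 88.8% identical to ADH1, the fermentative enzyme, and 115 of its 973 windows of 75 bases (11.8%) occur elsewhere in the genome, as do 115 of those of ADH1. ADH1 was at 10389, 11175, 10231 and 11357 FPKM, and its ratio to ADH2 stayed between 18.4 and 20.9 in the 4 strains. How many of the reads counted for ADH2 came from ADH1 was not tested, so the level of ADH2 is uncertain. No window of the other 9 genes occurred elsewhere.

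In the glyoxylate cycle, ICL1 and MLS1 parted. ICL1 (YER065C, chromosome V, 285241 to 286914), isocitrate lyase, was at 37.8 FPKM in set2-Y149F, 41.5 in set2-Y236F, 21.9 in set2Δ and 22.6 in the WT. The point mutants were the higher ones, at differences of 0.72 and 0.85 from the WT that stayed under 2-fold. Set2Δ was level with the WT, at -0.04. MLS1 (YNL117W, chromosome XIV, 406358 to 408022), the malate synthase that takes the glyoxylate made by ICL1, was at 6.90, 6.66, 4.63 and 7.21 FPKM in the same strains. Its differences of -0.06, -0.10 and -0.54 left no mutant above the WT. ICL1 was thus at 5.48 times MLS1 in set2-Y149F, 6.23 times in set2-Y236F, 4.74 times in set2Δ and 3.13 times in the WT.

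Their paralogs showed a like split within 2-fold. ICL2, a methylisocitrate lyase of mitochondria, differed from the WT by 0.64 in set2-Y149F, 0.77 in set2-Y236F and -0.12 in set2Δ. DAL7, the malate synthase of allantoin breakdown, differed by -0.38, 0.11 and -0.02.

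Both gluconeogenic genes were low in all strains. PCK1 (YKR097W, chromosome XI, 631152 to 632801), phosphoenolpyruvate carboxykinase, was at 7.09 FPKM in set2-Y149F, 6.28 in set2-Y236F, 2.39 in set2Δ and 4.47 in the WT. The WT lay between the point mutants and set2Δ, and no difference from it reached 2-fold (0.56, 0.41 and -0.69). FBP1 (YLR377C, chromosome XII, 873746 to 874792), fructose-1,6-bisphosphatase, was at 5.71, 5.10, 3.63 and 1.76 FPKM. Here the WT had the lowest mean. The differences were 1.28 in set2-Y149F, 1.14 in set2-Y236F and 0.75 in set2Δ, and the ratio to the WT was 2.06 in set2Δ. FBP1 was the gene of the 10, after ADY2, with the largest ratio of set2Δ to the WT.

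Counted over the group, 4 of the 10 genes were at least 2-fold higher in set2-Y149F than in the WT (ADY2, JEN1, ACS1 and FBP1), against 3.57% of all annotated rows. In set2-Y236F 5 were higher, SFC1 being the other one, against 3.47%. In set2Δ 0 were, against 2.88%. None was 2-fold lower in any mutant, against 2.07%, 1.87% and 1.19% of all rows. As the members were picked with these means in view, nothing is read from these shares. The 3 comparisons share the WT, so that they are not independent of each other.

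The median difference of the 10 genes was 0.80 in set2-Y149F, 0.96 in set2-Y236F and -0.14 in set2Δ, beside medians of -0.04, -0.02 and -0.07 over all annotated rows. Without ADH2, the FPKM of the other 9 genes summed to 334 in set2-Y149F, 362 in set2-Y236F, 148.5 in set2Δ and 162 in the WT. The calls of the low genes rest on the pseudocount. With 10 in place of 1, only ADY2 and JEN1 stayed past 2-fold in either point mutant. With 0.1, ADY2 (1.21) and FBP1 (1.01) passed it in set2Δ.

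**Figure D3:**
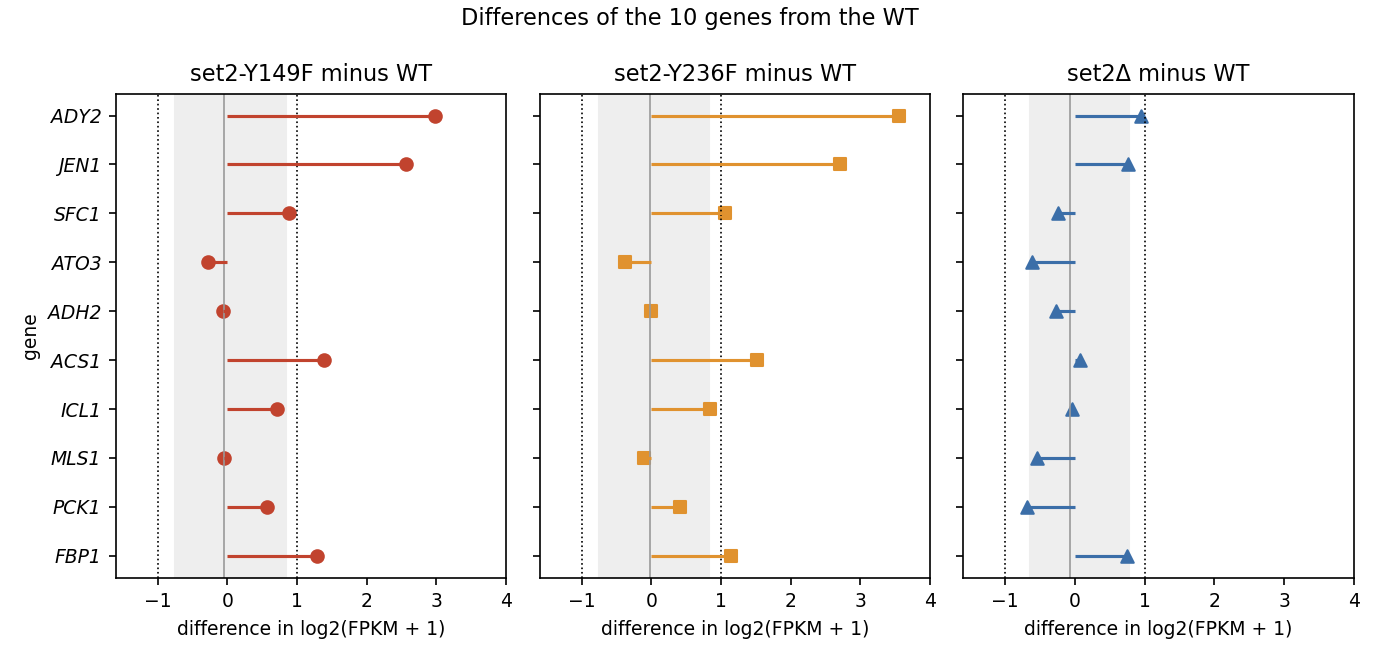
Difference of each gene from the WT in log2(FPKM + 1) in set2-Y149F, set2-Y236F and set2Δ; the dotted lines mark 2-fold, the grey band holds the middle 90% of the 6632 annotated rows and the grey line is their median. ADY2 and JEN1 lie beyond 2.5 in both point mutants, and no gene passes the dotted lines in set2Δ.

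The point mutants can also be set against set2Δ, which carries the same plasmid without SET2, and this comparison does not use the WT. The marker LEU2 was not level between these strains, at 1775 and 1890 FPKM in the point mutants and 6023 in set2Δ, and its part in the result was not tested. All 10 genes had a higher mean in set2-Y149F than in set2Δ, and all 10 in set2-Y236F, where 51.4% and 52.5% of all rows did. The 2-fold mark was passed by 5 of the 10 in set2-Y149F, against 1.76% of all rows, and by 5 in set2-Y236F, against 1.91%. These were ADY2 (differences of 2.03 and 2.61), JEN1 (1.80 and 1.95), ACS1 (1.31 and 1.45), SFC1 (1.13 and 1.31) and PCK1 (1.26 and 1.104). PCK1 thus passed the mark against set2Δ and not against the WT, and for FBP1 (0.53 and 0.40) it was the other way round. Both comparisons share set2Δ, and none of the 10 was 2-fold lower, against 1.07% of all rows in each. The mean of set2Δ was also known when the members were picked, and the level of ADH2 is uncertain. Nothing is therefore read from these shares either.

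Between the point mutants, 0 of the 10 genes differed 2-fold, where set2-Y149F had the higher mean by this margin in 0.302% of all rows and the lower mean in 0.317%. ADY2 had the widest gap, at 23.2 and 35.2 FPKM, a difference of -0.58 that 128 rows exceeded in the same direction. The other 9 genes lay between -0.18 and 0.15. The middle 90% of all rows lay between -0.43 and 0.45, so that of the 10 ADY2 was the one outside it.

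None of the 10 genes is in the authors' lists of antisense transcripts raised in each mutant. These hold 553 transcripts for set2-Y149F, 517 for set2-Y236F and 777 for set2Δ, paired with 7.55%, 7.09% and 10.4% of the annotated rows. No listed transcript overlaps any of the 10 genes, where 8.86%, 8.35% and 12.2% of the 5904 rows with a RefSeq position are overlapped. None lies within 1000 bp of one either, against 18.1%, 17.2% and 24.1% of these rows. With 10 genes, nothing particular to them is read from these counts. Of the 20 annotated genes next to the 10, YJR096W beside SFC1 was 2-fold higher than the WT in each mutant. Of all rows, 3.57% were higher in set2-Y149F, 3.47% in set2-Y236F and 2.88% in set2Δ. SRY1, beside JEN1, was 2-fold lower in set2Δ, against 1.19% of all rows. Nothing is read from these counts of neighbours. The medians of the 20 were 0.01 in set2-Y149F, -0.05 in set2-Y236F and -0.07 in set2Δ.

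Genes that act on these 10 differed less than ADY2 and JEN1 did, but not less than all of the 10. In set2-Y149F the difference of ADR1 from the WT (1.00) was below those of ADY2, JEN1, ACS1 and FBP1 and above the rest. That of CAT8 (0.74) was also below SFC1 (0.89) but above ICL1 (0.72). CAT8, the activator that binds the CSRE, was at 30.0 FPKM in set2-Y149F, 21.0 in set2-Y236F, 17.6 in set2Δ and 17.5 in the WT. SIP4, which binds the same element, was at 3.46, 3.07, 1.496 and 2.198 FPKM. ADR1, the activator of ADH2 and ACS1, was at 94.3, 83.0, 43.8 and 46.7 FPKM, and its difference of 1.00 in set2-Y149F was the only one at 2-fold among 16 regulators of glucose repression; with a pseudocount of 10 it was under 2-fold. MIG1, the repressor, was higher in the mutants within 2-fold, at 60.9, 67.4, 55.0 and 36.4 FPKM. Of all annotated rows, 3.57% were 2-fold higher in set2-Y149F. The median over the 16 was 0.23 in set2-Y149F, 0.03 in set2-Y236F and 0.01 in set2Δ.

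Among 21 other enzymes of the same routes, the genes that passed 2-fold went in both directions. CIT2, the peroxisomal citrate synthase of the glyoxylate cycle, was at 248 FPKM in set2-Y149F, 296 in set2-Y236F, 93.0 in set2Δ and 50.3 in the WT. ALD3, a stress-induced aldehyde dehydrogenase, was at 230, 191, 167 and 50.1 FPKM, and it was past 2-fold in set2Δ also (1.72). ACO1, the aconitase that serves both the glyoxylate and the tricarboxylic acid cycle, was at 175, 141, 219 and 366 FPKM. It was 2-fold lower in both point mutants, but in set2-Y149F (-1.06) no longer so once the strains were scaled to the same median. MAE1, the malic enzyme of mitochondria, was 2-fold lower in set2-Y236F (-1.13) and at -0.99 in set2-Y149F. In all, 2 were higher and 1 lower in set2-Y149F, 2 higher and 2 lower in set2-Y236F, and 1 higher and 0 lower in set2Δ. In the same order, 3.57%, 3.47% and 2.88% of all rows were higher, and 2.07%, 1.87% and 1.19% were lower. With 21 genes, nothing is read from these counts.

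Other transport and lactate genes included relatives and partners of ADY2 and JEN1. ATO2, the closest relative of ADY2 at 72.4% identity over 844 aligned bases, was at 55.8 FPKM in set2-Y149F, 52.8 in set2-Y236F, 27.4 in set2Δ and 18.2 in the WT. CYB2, the mitochondrial enzyme that oxidises the lactate brought in by JEN1, was at 92.1, 61.5, 82.2 and 17.5 FPKM. Unlike that of JEN1, its difference in set2Δ (2.17) lay between those in the point mutants (2.33 and 1.75). OAC1, the mitochondrial oxaloacetate carrier, was lower in set2-Y149F (-1.15). Of these 12 genes, 2 were higher and 1 lower in set2-Y149F, 2 higher and 0 lower in set2-Y236F, and 1 higher and 0 lower in set2Δ. The shares of all rows in these strains were 3.57%, 3.47% and 2.88% higher and 2.07%, 1.87% and 1.19% lower. With 12 genes, nothing is read from these counts either.

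The genes of the carnitine shuttle and of peroxisomal beta-oxidation, which also supply acetyl-CoA, had the highest medians of the 7 related groups in the point mutants, 0.75 (set2-Y149F) and 0.67 (set2-Y236F) against 0.09 in set2Δ. Of the 17, 5 were 2-fold higher in set2-Y149F, 5 in set2-Y236F and 1 in set2Δ, against 3.57%, 3.47% and 2.88% of all rows. With a pseudocount of 10, 0 were in set2-Y149F and 1 in set2-Y236F. CTA1, the peroxisomal catalase, was at 18.6 FPKM in set2-Y149F, 19.8 in set2-Y236F, 19.3 in set2Δ and 4.38 in the WT. POT1, the thiolase of beta-oxidation, was at 12.6, 11.04, 7.41 and 3.37 FPKM. CAT2, the carnitine acetyltransferase that passes acetyl groups to mitochondria, was at 27.3, 29.3, 15.5 and 13.1 FPKM, with set2Δ close to the WT as for ACS1. SPS19, a reductase for unsaturated fatty acids, differed by 1.02, 1.21 and 0.33.

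The remaining groups had few calls. With 8 or 12 genes each, few calls would also be made at the shares of all rows given below, so nothing is read from this. None of the 8 genes of the GID ubiquitin ligase, which degrades FBP1 and PCK1 protein when glucose returns, passed 2-fold in any mutant. Of 12 glucose-repressed sugar genes, among them SUC2 and the GAL genes, GAL3 alone did, lower in set2Δ (-1.16), and their medians were 0.38, 0.06 and 0.19 in set2-Y149F, set2-Y236F and set2Δ. None of 12 genes of glycolysis and of the route to ethanol passed it, with medians of -0.19, 0.00 and -0.17. These include FBA1, TDH3, PGK1 and ENO2, whose steps gluconeogenesis uses in reverse, so the group is not one of opposed steps alone. Over the 98 genes of the 7 groups, 10 were higher and 2 lower in set2-Y149F, 9 higher and 2 lower in set2-Y236F, and 3 higher and 1 lower in set2Δ. In the same order, the shares over all annotated rows were 3.57%, 3.47% and 2.88% higher and 2.07%, 1.87% and 1.19% lower. The groups were chosen with earlier results known, so nothing is read from these counts.

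**Figure D4:**
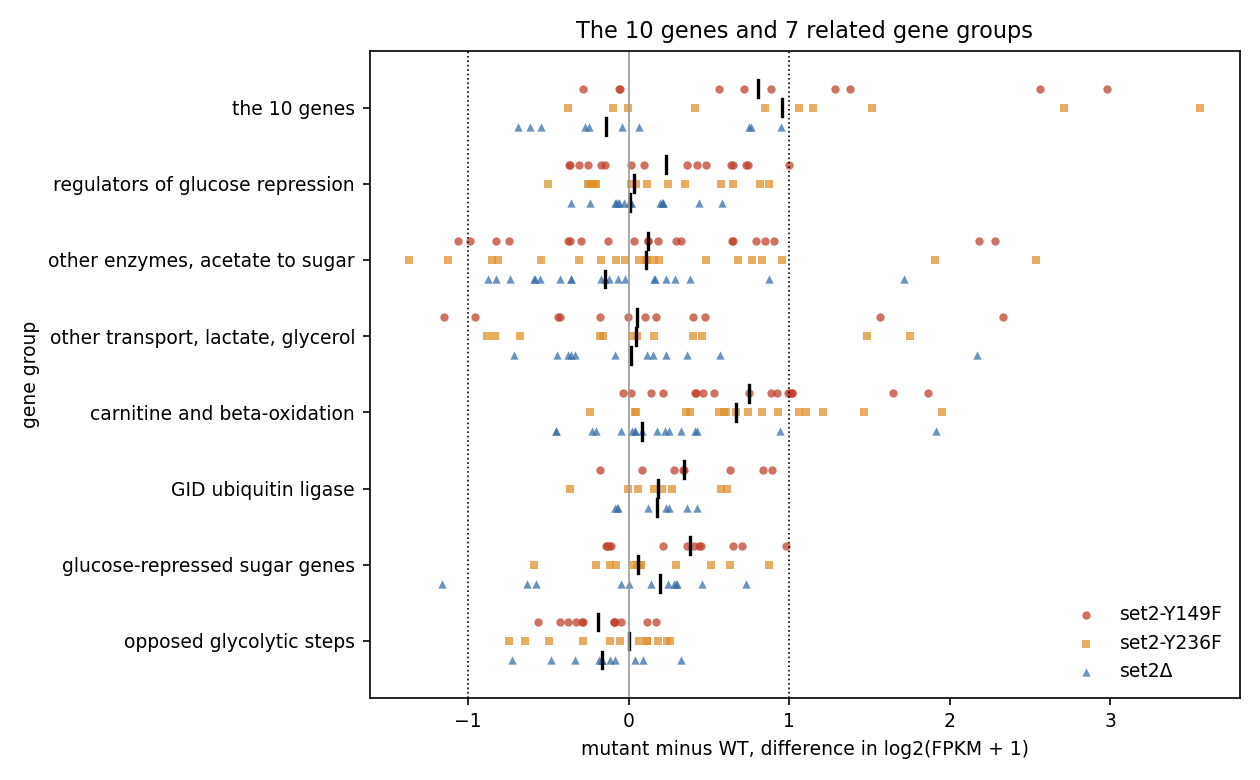
Difference from the WT in log2(FPKM + 1) for the 10 genes and for 7 related groups in set2-Y149F (circles), set2-Y236F (squares) and set2Δ (triangles); each point is a gene, black bars are medians and dotted lines mark 2-fold. The medians of the 10 genes are 0.80, 0.96 and -0.14, and those of the carnitine and beta-oxidation group are 0.75, 0.67 and 0.09.

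The patterns nearest to that of ADY2 over the 3 differences from the WT were sought among the 5796 rows that match RefSeq and lie outside the 10 genes and the related groups. Likeness was the Euclidean distance on log2(FPKM + 1), where 0 is an identical set of differences. The 5 nearest were SLZ1, a sporulation gene, at 0.81, SPG4, a stationary phase gene, at 0.82, YPR145C-A at 0.88, BDH2, a butanediol dehydrogenase homologue, at 1.08, and FMP45, a membrane protein gene of the SUR7 family, at 1.32. Among the 10 genes, JEN1 was at 0.97 and ACS1, the next, at 2.74. SLZ1 was at 23.1 FPKM in set2-Y149F, 17.9 in set2-Y236F, 2.88 in set2Δ and 1.57 in the WT. ADY2 was at 23.2, 35.2, 4.93 and 2.07 FPKM in the same strains. The levels were thus close in set2-Y149F and well apart in set2-Y236F. With 3 differences that share the WT, this likeness describes these means alone.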

How the data were processed

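The authors aligned the reads to sacCer3. Their processing notes list TopHat2 2.1.1 and Trimmomatic 0.38, with Cufflinks 2.2.1, HTSeq 0.13.5, Cuffdiff, bedtools 2.29.2 and SAMtools 1.10. Which of them gave the FPKM values of annotated genes is not stated there. The deposited sheet holds FPKM as 1 mean per strain. A mean scaled count, a signal deposited by the authors with no list of libraries, was used as a sign of depth. Columns of fold changes and p-values hold the authors' comparisons and were not used. The antisense rows of the FPKM sheet were not used either.

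Differences were taken on log2(FPKM + 1) with Python 3.11.15 and pandas 2.3.3. The limma test planned for values per library could not be run. Sequences came from the RefSeq R64 genome, the sequence of sacCer3. The alternatives were pseudocounts of 0.1 and 10, strains scaled to the same median, rows with a mean of at least 1 FPKM and rows that match RefSeq.

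All 10 genes were named. Of each related group, genes past 2-fold in any mutant were named, up to 4 by the largest difference, with CAT8, ADR1, SIP4, MIG1, the paralogs and the 5 rows nearest to ADY2; all others were picked once their values were known. The genes, groups and rules were chosen with earlier results of these data known.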

Additional observations from a re-analysis of the deposited data

How the results depend on the processing

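No paired analysis was possible because the sheet holds 1 mean per strain, and leaving out replicates was not run for the same reason. With a pseudocount of 10, the genes of the 10 at least 2-fold higher numbered 2 in set2-Y149F and 2 in set2-Y236F against the WT, and 2 and 2 against set2Δ. At this pseudocount, 0.663% of all rows were higher in set2-Y149F than in set2Δ, and 0.498% in set2-Y236F. With 0.1, 2 were higher in set2Δ than in the WT, and the medians of the 10 genes reached 1.18 for set2-Y236F minus the WT, 1.09 for set2-Y149F minus set2Δ and 1.14 for set2-Y236F minus set2Δ. With the strains scaled to the same median, 1 gene was higher in set2Δ than in the WT (ADY2), and the median for set2-Y236F minus the WT was 1.05. That scaling multiplied the point mutants and set2Δ by 1.06, 1.07 and 1.08, and gave 244 rows higher and 60 lower in set2Δ against 191 and 79 unscaled. With pseudocounts of 0.1 and 10, 5.73% and 1.52% of all rows were higher in set2-Y149F than in the WT, 5.74% and 1.30% in set2-Y236F and 5.26% and 0.829% in set2Δ. Only rows that match RefSeq left 121 higher in set2Δ than in the WT, 29 and 32 lower in the point mutants than in set2Δ, and, for set2-Y149F against set2-Y236F, 11 higher and 9 lower. No call of a member turned round under any of these alternatives. The depth, which is not known per library, limits SFC1 and FBP1 most.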

Other observations

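YJR096W, an aldo-keto reductase gene that begins after SFC1 on the same strand, was at 464 FPKM in set2-Y149F, 539 in set2-Y236F, 350 in set2Δ and 157 in the WT, differences of 1.56, 1.77 and 1.15. SRY1, next to JEN1, was at 120, 119, 53.9 and 202 FPKM, differences of -0.74, -0.76 and -1.88, where those of JEN1 were above 0. Both were named after their values were seen.

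The number of libraries in each mean is not stated. A mean of 2 numbers with 15 digits often ends within 15 digits once it is doubled. Of the deposited means above 0 in each strain, 36.5% to 37.5% ended within 15 significant digits as printed, 53.8% to 55.5% when doubled and 20.7% to 21.5% when tripled. The share was thus higher on doubling, while the labels list 3 libraries per strain. A mean of 3 numbers is mostly stored rounded, so tripling the stored value does not bring it back within 15 digits. The lower share on tripling therefore cannot decide whether 3 libraries entered a mean, and their number remains unknown.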
